A study of Mus musculus with 180 samples.

Results

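Tissue factor (F3), coagulation factor X (F10) and the protein C receptor (Procr) were followed across a screen of kinase inhibitors in mouse macrophages. So were urokinase (Plau), the urokinase receptor (Plaur), plasminogen activator inhibitor 2 (Serpinb2) and thrombospondin 1 (Thbs1). These 7 genes are 7 of the 45070 genes in the table and were taken by their symbols, and all 7 were among the 12714 genes with a mean value of at least 10 that entered the tests. F3 was picked for its fall with Momelotinib and Pacritinib, so the values of all 7 genes with these 2 compounds are given as a description only, without a test, and every count of compounds by the values of these genes is over the other 56, while the order of the levels covers all 59 conditions.

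The cells were wild type bone marrow-derived macrophages (BMDMs), grown from the marrow of male C57/BL6 mice aged 6 to 8 weeks. They were treated for 1 h with 1 of 58 clinical kinase inhibitors (CKIs) or with DMSO, their vehicle, and every group then received LPS at 10 ng/ml for 2 h. LPS is a bacterial cell wall product that activates TLR4, and no group without LPS was analysed here. The 180 polyA RNA-seq samples comprise 3 for each CKI and 6 for DMSO, in 2 sets of 3, and the labels do not say which CKIs belong with which set. Each CKI was used at its own concentration, so the values of different CKIs stand side by side and were not tested against each other. The classes of inhibitors named below do not always match the kinase for which the dose was set. In the paper TG100572 was dosed for TYK2, a JAK kinase, and Apitolisib for JAK1.

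Tissue factor is the cell-surface receptor for factor VIIa, and the complex of the pair activates factor X, which in turn generates thrombin. Monocytes and macrophages are known to make tissue factor in response to LPS, and this is one of the links between infection and coagulation. The same cells handle the removal of clots: urokinase bound to its receptor turns plasminogen into plasmin, and inhibitors of the serpin family, such as the product of Serpinb2, restrain it.

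Values are the authors' normalized exonic read counts, rounded to whole numbers, and are called normalized values. They summed to between 9477340 and 12273349 in the CKI samples and to between 9481416 and 11094387 in the DMSO samples. The markers of macrophages (Adgre1, Csf1r, Cd68, Itgam, Fcgr1, Lyz2, Cd14 and Mertk) were all expressed in DMSO, summing to between 99709 and 216444, while those of neutrophils summed to between 224 and 638, of megakaryocytes and platelets to between 11 and 32, of fibroblasts to between 28 and 180, of lymphocytes to at most 2, and of basophils and mast cells to at most 1. The endothelial markers summed to between 49 and 360, nearly all of it from Kdr, and Tek and Emcn were at 0 in all 6 samples. Mitochondrial transcripts made up between 0.759% and 1.94% of the DMSO samples and between 0.525% and 4.47% of the CKI samples. Between the 2 DMSO sets 0 of the 12714 genes differed at an adjusted p under 0.05 in limma's test and 310 at an unadjusted p under 0.05, with none of the 7 genes among them.

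Set against the length of the transcript, Plaur was by far the highest of the 7 in LPS-treated cells with DMSO, at 814 ± 304 (SD, n = 6) normalized values per kilobase. Thbs1 stood at 76.6 ± 29.0, Procr at 65.8 ± 12.9, F3 at 64.1 ± 14.1, Serpinb2 at 51.4 ± 37.3 and Plau at 46.5 ± 10.3 per kilobase, with spreads that overlap. F10 was the lowest, at 9.65 ± 1.45 per kilobase, and with normalized values of 21 to 30 in DMSO it carries a large counting error. None of the 7 overlaps another gene of the table, and none was at 0 in any of the 180 samples.

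All 7 genes lie on the plus strand of mm10, F3 at chr3:121723537-121735052. RefSeq promoter windows (GRCm38.p6, the assembly of mm10) were matched by symbol for 5 of the 7, without Plau and Thbs1, and the 250 bases before the start site were searched on both strands. The letters of the AP-1 motif, TGANTCA, which is bound by FOS and JUN dimers and is known from the tissue factor and urokinase receptor promoters, were found in 4 of the 5, against 6.75% of 32851 windows of the same length. F3 has 2 matches, 146 and 135 bases before the start site, Plaur has 1 at 69 bases, Serpinb2 1 at 94 bases and Procr 1 at 154 bases. The F10 window holds none. These 4 windows are shown because a short element shared by several members is visible in them, 5′ to 3′ and with the AP-1 letters in capitals, at chr3:121723287-121723536 for F3, chr7:24462233-24462482 for Plaur, chr1:107511173-107511422 for Serpinb2 and chr2:155750967-155751216 for Procr, all on the plus strand.
F3: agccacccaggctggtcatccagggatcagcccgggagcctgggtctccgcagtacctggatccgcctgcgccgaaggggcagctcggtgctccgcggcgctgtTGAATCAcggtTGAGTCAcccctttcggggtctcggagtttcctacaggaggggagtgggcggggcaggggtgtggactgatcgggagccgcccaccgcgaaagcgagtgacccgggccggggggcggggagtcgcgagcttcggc
Plaur: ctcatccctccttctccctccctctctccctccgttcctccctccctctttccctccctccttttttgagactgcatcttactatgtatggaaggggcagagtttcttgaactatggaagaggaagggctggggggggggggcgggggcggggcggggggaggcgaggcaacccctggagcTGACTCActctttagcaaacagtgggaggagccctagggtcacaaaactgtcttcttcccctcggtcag
Serpinb2: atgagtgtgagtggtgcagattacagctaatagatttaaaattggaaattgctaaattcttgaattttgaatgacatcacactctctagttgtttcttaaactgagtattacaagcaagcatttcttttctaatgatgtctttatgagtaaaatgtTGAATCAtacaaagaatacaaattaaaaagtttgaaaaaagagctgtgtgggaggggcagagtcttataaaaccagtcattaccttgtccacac
Procr: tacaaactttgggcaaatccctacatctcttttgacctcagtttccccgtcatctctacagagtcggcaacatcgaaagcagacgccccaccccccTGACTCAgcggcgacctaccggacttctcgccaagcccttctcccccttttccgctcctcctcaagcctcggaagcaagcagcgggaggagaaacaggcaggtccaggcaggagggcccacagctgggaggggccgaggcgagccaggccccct
The SP1 motif, GGGCGG, was also found in the F3 and Plaur windows, 3 times in each, and in 32.7% of all windows. The EGR1 motif, GCGNGGGCG, was found once in the Plaur window, where it overlaps SP1 matches, and in 4.70% of all windows. The patterns searched for the CRE motif (TGACGTCA) and the NF-kB, CArG box and ISRE motifs had no match in the 5 windows. They were found in 1.55%, 7.25%, 1.47% and 2.98% of all windows. Each search took a set pattern of letters, so a site that departs from it would be missed. The absence of a match, as for NF-kB in the F3 window, therefore does not show that a site is absent. A match is a description of the letters, and binding was not measured in these samples.

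F3 was lowered by 8 of the 56 CKIs and raised by 0 (14.3% of the CKIs lowered it, while across all genes 1.7% of the comparisons were called lower and 2.61% higher). At an unadjusted p under 0.05 it was lowered by 35 CKIs and raised by 0. No share over all genes stands beside this count, and the comparisons share the same 6 DMSO samples, so nothing is concluded from it. Here limma's test was applied to the log2 of the normalized value plus 1, with Benjamini-Hochberg adjustment over genes, and all log2 fold changes are on this scale, which understates the changes of low genes. In DMSO the values of F3 ranged from 85 over a median of 116.5 to 151. With Filgotinib, an inhibitor of JAK kinases, they were 22, 11 and 15, and with Midostaurin, which inhibits many kinases, 24, 19 and 18. All 6 of these samples lie far below the lowest DMSO sample.

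Filgotinib thus gave the lowest F3 of the screen, 7.24-fold below DMSO (log2 fold change −2.86 ± 0.32 (SE), adjusted p = 3.07e-12), followed by Midostaurin, 5.61-fold below DMSO (log2 fold change −2.49 ± 0.32 (SE), adjusted p = 3.34e-09). Both calls held in each of the 24 alternative analyses. Next came Apitolisib, an inhibitor of PI3K and mTOR, with values of 43, 48 and 37 (log2 fold change −1.45 ± 0.32 (SE), adjusted p = 0.00787). The 5 other calls were Pimasertib, a MEK inhibitor, at 40, 76 and 40 (log2 fold change −1.23), PF04691502 at 76, 51 and 41 (−1.11), Afatinib at 84, 38 and 61 (−1.01), Tofacitinib at 53, 52 and 71 (−1.01) and AZD2014 at 89, 46 and 55 (−0.94). Their samples all lie below the lowest DMSO sample of 85, other than 1 AZD2014 sample at 89. Their adjusted p-values in limma's test were 0.00605, 0.0139, 0.0162, 0.0381 and 0.0268, in the same order.

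Apart from Filgotinib and Midostaurin, each of these F3 calls was lost in the same limma test when some samples were left out. DMSO samples were left out 1 at a time. CKI samples were left out by replicate number, from every CKI at once, so these fits do not single out 1 library. The adjusted p for Apitolisib was 0.0699 without CKI replicate 3. For Pimasertib it was 0.0562 without CKI replicate 1 and 0.0561 without CKI replicate 3, and for PF04691502 0.0929 without CKI replicate 3. For Afatinib it was 0.193 without CKI replicate 2. For Tofacitinib it was 0.174 without CKI replicate 1 and 0.157 without CKI replicate 2. It was also 0.0637 without DMSO set 1 replicate 2, 0.0528 without DMSO set 1 replicate 3 and 0.107 without DMSO set 2 replicate 2. For AZD2014 it was 0.126 without CKI replicate 2 and 0.101 without CKI replicate 3. It was also 0.0573 without DMSO set 1 replicate 2 and 0.0659 without DMSO set 2 replicate 2. With the replicate number as a block, F3 was lowered by 11 CKIs (19.6% against 3.15% of all comparisons), the 3 added being X396, Refametinib and Lenvatinib (adjusted p = 0.0331, 0.0354 and 0.0307 in limma). Samples of the same number deviated together for Refametinib and Lenvatinib and not for X396. With the block and a covariate for the mitochondrial share, 5 CKIs lowered F3 (8.93% against 2.33%), as the calls of Apitolisib, Pimasertib, PF04691502 and Tofacitinib were lost, X396 was added, and Refametinib and Lenvatinib did not pass.

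In Pimasertib the mitochondrial share was 3.24% to 4.29%, above every DMSO sample. The neutrophil markers were on average also highest there among the 59 conditions, with sums of 929 to 1112 against 224 to 638 in DMSO and each of the 7 genes above its DMSO mean. S100a8 and S100a9 made up most of it, at 448 to 535 and 323 to 383 (100 to 307 and 53 to 204 in DMSO), while Ly6g was at 0 or 1 in both groups. The means of 4 of the 7 lay above the highest DMSO sample, while Mpo (10 to 24 against 6 to 21) and Elane (13 to 33 against 9 to 32) overlapped DMSO. The 8 macrophage markers were also each above their DMSO means with Pimasertib, 3 of them above the highest DMSO sample. Their sums were 188156 to 225879 against 99709 to 216444 in DMSO. The part of these markers in the results with Pimasertib was not tested.

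With the 2 CKIs for which F3 was picked, its values were 33, 18 and 22 for Momelotinib and 44, 36 and 63 for Pacritinib, both JAK inhibitors. The means, 24.3 ± 7.77 and 47.7 ± 13.9 (SD, n = 3), are the third and the fifth lowest of the 59 conditions. In the order of the means, Momelotinib stands between Midostaurin and Apitolisib, and Pacritinib between Apitolisib and Pimasertib, so CKIs that the rule did not use lie on either side of each. The Pacritinib samples varied in their mitochondrial share, from 0.892% to 4.20%, while the Momelotinib samples lay between 0.997% and 1.36%, within the DMSO range.

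The level of F3 in every condition follows, as the mean ± SD of 3 samples in ascending order, and it spans 9.15-fold from the lowest to the highest mean. The lowest 3 means were 16 ± 5.57 with Filgotinib, 20.3 ± 3.21 with Midostaurin and 24.3 ± 7.77 with Momelotinib. A step up led to the next group, with means of 42.7 ± 5.51 with Apitolisib, 47.7 ± 13.9 with Pacritinib, 52 ± 20.8 with Pimasertib and 53.3 ± 7.77 with Capmatinib. Only 1 of the 58 steps between neighbours in this order is larger than the SDs of both neighbours, and that step lies between Momelotinib and Apitolisib.

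A long middle stretch followed in which neighbours could not be told apart. It began with 55 ± 6.08 with GSK2110183, 56 ± 18.0 with PF04691502, 56.3 ± 15.1 with X396, 57.3 ± 12.7 with Refametinib, 58.7 ± 10.7 with Tofacitinib, 59.3 ± 12.7 with AC480 and 61 ± 23 with Afatinib. It went on with 62.7 ± 22.0 with BMS387032, 63.3 ± 20.8 with MK2461, 63.3 ± 22.7 with AZD2014, 64.3 ± 27.5 with SGI1776, 64.7 ± 9.07 with SNS314, 65.3 ± 42.9 with Losmapimod, 66 ± 14 with Ruxolitinib and 66.3 ± 20.6 with AZD1208. The inhibitors in this stretch have targets as different as AKT, ALK, MEK, EGFR, CDKs, MET, PIM and Aurora kinases. Close above stood 66.7 ± 46.8 with OSI930, 66.7 ± 10.2 with BMS911543, 67.3 ± 15.6 with Volasertib, 67.7 ± 32.9 with Lenvatinib, 68 ± 10 with MK5108, 68.7 ± 18.3 with PH797804, 69 ± 29.5 with VX702 and 69.7 ± 40.6 with IMD0354. These were followed by 72 ± 22.9 with ONO4059analogue, 72.7 ± 24.1 with TG100572, 73 ± 24.3 with TG100115, 75 ± 8.19 with Talmapimod, 75.7 ± 16.9 with Bafetinib, 76 ± 29.7 with Poziotinib, 76.7 ± 26.5 with MK2206 and 79.7 ± 20.4 with Apatinib. In the stretch from GSK2110183 to Apatinib single samples of several CKIs reached into the DMSO range.

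The upper end of the order holds DMSO. Below it stood 81.7 ± 22.9 with Lapatinib, 82.7 ± 42.2 with AZD8186, 83 ± 8.72 with GSK461364, 86 ± 14.9 with Telatinib, 90.3 ± 31.1 with Encorafenib, 95.7 ± 28.3 with Selumetinib, 96.7 ± 21.4 with Mubritinib and 98.7 ± 33.5 with GDC0994, then 101 ± 44.0 with AMG208, 106 ± 12.9 with SGX523, 109.7 ± 43.5 with Silmitasertib, 110 ± 60.4 with XL413, 113 ± 36.0 with Tanzisertib, 114 ± 32.1 with BGT226, 114 ± 10.4 with Vatalanib and 119 ± 46.7 with NMS1286937. DMSO itself had a mean of 120.2 ± 26.4 (SD, n = 6) and was the fifth highest of the 59 conditions. Above it were 123 ± 23.4 with Vandetanib, 129 ± 18.5 with Ulixertinib, 129 ± 7.94 with Neratinib and 146 ± 60.9 with Omipalisib, all within its spread. The MEK inhibitors therefore spread over the order, with Pimasertib, Refametinib and Selumetinib at log2 fold changes of −1.23, −1.05 and −0.34, and so did the inhibitors of EGFR and ERBB2, with Afatinib, AC480, Poziotinib, Lapatinib, Mubritinib and Neratinib at −1.01, −0.997, −0.69, −0.56, −0.31 and 0.13, of which Afatinib alone passed the test.

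**Figure D1:**
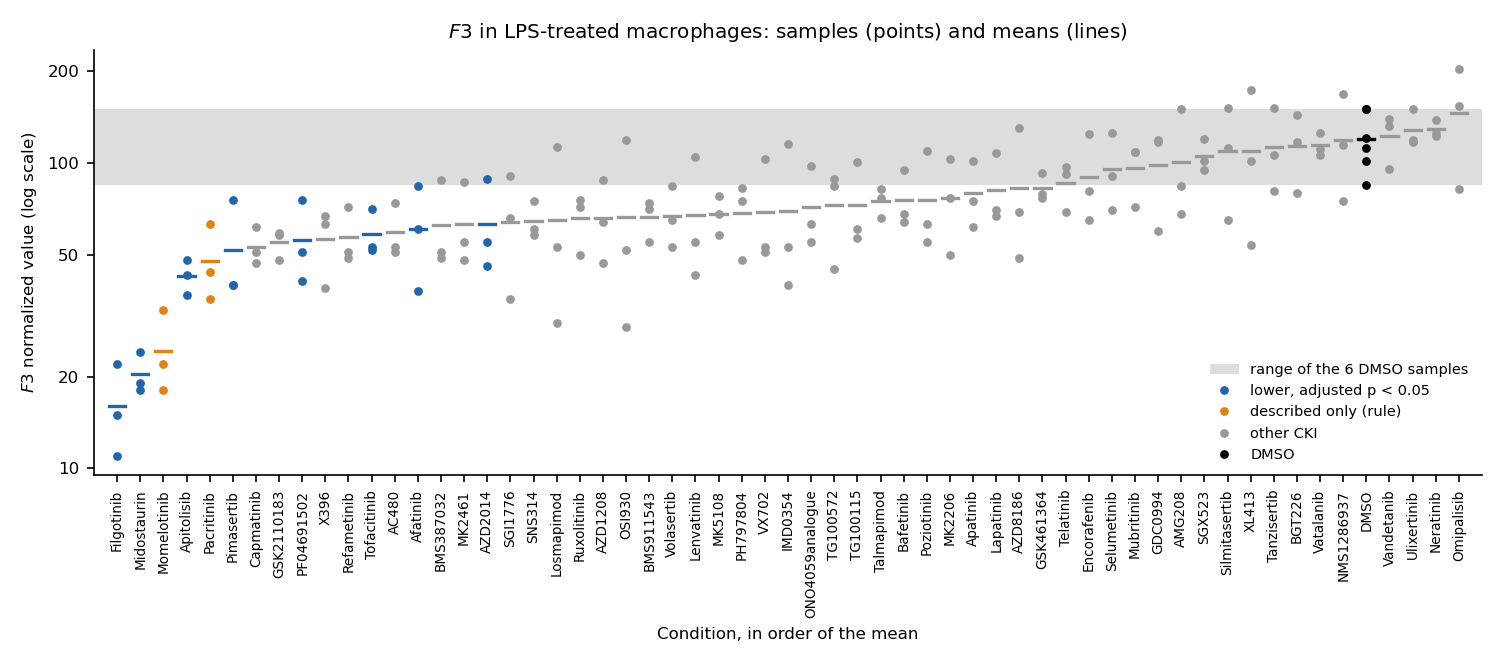
Normalized values of F3 (log axis) in the 3 samples of each CKI and the 6 of DMSO (points), with their means (lines), in order of the mean. The grey band is the range of the DMSO samples, 85 to 151, blue marks the 8 CKIs called lower and orange Momelotinib and Pacritinib, and most CKI samples lie below the band.

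Most CKIs had less F3 than DMSO, whether or not they passed the test. The mean was below the DMSO mean for 52 of the 56 CKIs, Momelotinib and Pacritinib left out, and below the lowest DMSO sample for 39. Of the 168 samples of these CKIs, 111 (66.1%) lay below the lowest DMSO sample and 6 above the highest. No share over all genes is given for these counts. The median log2 fold change of F3 over the 56 CKIs was −0.77, while the median over all genes was 0.08 in the middle CKI. All these comparisons share the same 6 DMSO samples, so a high draw of F3 in them would move every fold change at once. The mean of F3 was 124 ± 24.2 in DMSO set 1 and 116 ± 33.2 in set 2 (SD, n = 3), and 53 and 51 CKIs lay below these. Mitochondrial transcripts were higher than in DMSO in 44 of the 56 CKIs, and over these CKIs, which share the screen and the reference, their share and the fold change of F3 had a Spearman correlation of −0.43, whose part in the result was not tested beyond the fit with this share.

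Grouped by target, the 4 JAK inhibitors other than the 2 for which F3 was picked had F3 means of 16 ± 5.57 with Filgotinib, 58.7 ± 10.7 with Tofacitinib, 66 ± 14 with Ruxolitinib and 66.7 ± 10.2 with BMS911543, each mean below the lowest DMSO sample. Ruxolitinib and BMS911543 did not pass the test (log2 fold changes −0.85 and −0.82, adjusted p = 1.000 and 0.108 in limma). The 5 inhibitors of PI3K and mTOR stand at both ends of the order, with log2 fold changes of F3 of −1.45 for Apitolisib, −1.11 for PF04691502, −0.94 for AZD2014, −0.09 for BGT226 and 0.22 for Omipalisib. The values with Omipalisib, 154, 82 and 203, reach on both sides of the DMSO range.

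The genes whose condition means followed those of F3 most closely were Morc3, Csrnp1, Prkx, Cmpk2 and Mafk, with Spearman correlations of 0.816, 0.815, 0.812, 0.807 and 0.800 over the 59 conditions among 9640 genes with a mean of at least 50. Cmpk2 is known as an interferon-induced gene. None of the other 6 members was near them: the correlation of F3 lay between −0.29 with Serpinb2 and 0.04 with Thbs1. The conditions include Momelotinib and Pacritinib, for which F3 was picked. Over the other 57, a set chosen after seeing the data, the 5 nearest genes were Csrnp1, Morc3, Prkx, Ppp1r15b and Cmpk2 (0.806, 0.803, 0.797, 0.791 and 0.787), 4 of them the same, and Mafk was the seventh (0.779). These are descriptions over conditions that share one screen and one reference.

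The other 2 genes of coagulation and its control, F10 and Procr, moved with few CKIs. F10 encodes the zymogen that tissue factor with factor VIIa activates. It was raised by 2 of the 56 CKIs and lowered by 0 (3.57% raised against 2.61% of all comparisons called higher). In DMSO its values were 29, 29 and 22 in set 1 and 30, 21 and 25 in set 2. With BGT226 they were 167, 79 and 161 and with Omipalisib 94, 124 and 108, so that all 6 samples lie above the highest DMSO sample. This was 4.84-fold for BGT226 (log2 fold change 2.28 ± 0.33 (SE), adjusted p = 5.36e-09) and 4.07-fold for Omipalisib (log2 fold change 2.03 ± 0.33 (SE), adjusted p = 3.22e-07). Both calls held in the 23 alternatives that gave a value. The 3 other inhibitors of PI3K and mTOR had F10 means of 28.7 ± 2.08 with Apitolisib, 33 ± 12.3 with AZD2014 and 38 ± 20.8 with PF04691502, and none of these passed the test.

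F7, which encodes the factor VII that tissue factor binds and which lies beside F10 in the genome, was below the filter, with values of 1 to 7 in DMSO. They were 40, 27 and 44 with BGT226 and 8, 16 and 12 with Omipalisib, above every DMSO sample in both, but at levels near the limit of these data. F10 followed Batf, Snrnp35 and Nr1h3 most closely over the 59 conditions (Spearman 0.735, 0.734 and 0.722), and Procr was the member nearest to it (0.701).

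Procr encodes the endothelial protein C receptor, which presents protein C for activation and so serves an anticoagulant pathway. It was raised by 3 of the 56 CKIs and lowered by 1 (5.36% raised against 2.61% of all comparisons, and 1.79% lowered against 1.7%). In DMSO its values ranged from 75 over a median of 101 to 118. With Omipalisib they were 354, 262 and 442, with Midostaurin 276, 207 and 220 and with Afatinib 181, 155 and 181, all above the highest DMSO sample. The log2 fold changes were 1.81 ± 0.27 (SE, adjusted p = 2.09e-08), 1.25 ± 0.27 (adjusted p = 0.000655) and 0.81 ± 0.27 (adjusted p = 0.0188) in limma's test. The call for Afatinib was lost when any 1 replicate number was left out of all CKIs at once. The adjusted p was then 0.0579 without CKI replicate 1, 0.0612 without CKI replicate 2 and 0.0746 without CKI replicate 3. The replicate block gave 5 raised and 1 lowered (8.93% against 4.71% and 1.79% against 3.15%), adding Lapatinib and BGT226 (adjusted p = 0.0284 and 0.0389 in limma), of which only Lapatinib had same-numbered samples that deviated together, and neither passed with the mitochondrial share in the fit.

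With Filgotinib the Procr values were 37, 43 and 45, 2.31-fold below DMSO (log2 fold change −1.21 ± 0.27 (SE), adjusted p = 0.000302), and this was the lowest mean of the 59 conditions. It is the CKI with the lowest F3 as well, so the initiator of coagulation and this anticoagulant receptor fell together there, while Midostaurin lowered F3 and raised Procr. The other JAK inhibitors had Procr means of 116 ± 34.8 with Momelotinib, 92 ± 16.5 with Pacritinib, 85 ± 8.19 with Ruxolitinib, 124 ± 16.1 with Tofacitinib and 136 ± 10.5 with BMS911543. For Momelotinib and Pacritinib these are described only, and none of the other 3 passed the test. Procr followed Car13, Ist1 and Cd40 most closely over the conditions (Spearman 0.830, 0.818 and 0.791).

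On the side of plasminogen activation, Plau was the gene with the largest changes. It encodes urokinase, the protease that converts plasminogen to plasmin at the cell surface. It was raised by 9 of the 56 CKIs and lowered by 1 (16.1% raised against 2.61% of all comparisons, and 1.79% lowered against 1.7%). Only 238 of the 12714 genes (1.87%) were called by as many CKIs. With the replicate number as a block, 16 CKIs raised Plau and 1 lowered it (28.6% against 4.71% and 1.79% against 3.15%), and the CKIs added were BMS387032, Capmatinib, GSK461364, IMD0354, Lapatinib, MK2206 and TG100115, at log2 fold changes between 0.75 and 1.15. For all of these but MK2206, same-numbered CKI and DMSO samples deviated together. With the mitochondrial share added to the block, 7 CKIs raised Plau and 2 lowered it (12.5% against 1.98% and 3.57% against 2.33%). None of the 7 added CKIs passed there, with adjusted p-values of 0.0672 to 0.400 in limma, the calls of Lenvatinib and Tofacitinib were lost, and X396 was added as lowered.

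In DMSO the values of Plau ranged from 86 over a median of 102.5 to 152. With BGT226 they were 3197, 3227 and 2155 and with Omipalisib 1354, 1652 and 816, far above all other conditions, and with Mubritinib 323, 524 and 253. The lowest of these 9 samples is above the highest DMSO sample. This was 26.0-fold for BGT226 (log2 fold change 4.70 ± 0.30 (SE), adjusted p = 5.34e-29), 11.3-fold for Omipalisib (log2 fold change 3.50 ± 0.30 (SE), adjusted p = 1.15e-19) and 3.25-fold for Mubritinib (log2 fold change 1.70 ± 0.30 (SE), adjusted p = 3.08e-05). Among the other inhibitors of PI3K and mTOR, AZD2014 gave 211, 266 and 311 and PF04691502 290, 279 and 191 (log2 fold changes 1.27 and 1.21, both called), and Apitolisib 173, 100 and 127 (0.28, adjusted p = 0.531 in limma). The PF04691502 call was lost in limma's test without replicate 1 of every CKI (adjusted p = 0.0864).

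Outside this class Plau was raised by the ERBB inhibitor Afatinib, at 286, 367 and 286, the p38 inhibitor PH797804, at 313, 281 and 283, the VEGFR inhibitor Lenvatinib, at 133, 278 and 283, and the JAK inhibitor Tofacitinib, at 194, 235 and 173. Their log2 fold changes were 1.53, 1.44, 1.02 and 0.89, and their samples all lie above the DMSO range other than 1 of Lenvatinib at 133. The calls of Lenvatinib and Tofacitinib were each lost in several of limma's fits without 1 DMSO sample or without 1 replicate number of every CKI. For Lenvatinib the adjusted p-values were 0.0710 to 0.155 (each of the 3 CKI replicate numbers, and DMSO set 2 replicate 2). For Tofacitinib they were 0.0662 to 0.195 (CKI replicates 1 and 2, DMSO set 1 replicates 2 and 3 and DMSO set 2 replicate 2). The JAK inhibitor BMS911543 lowered Plau to 57, 79 and 35 (log2 fold change −0.97 ± 0.30 (SE), adjusted p = 0.0188 in limma), below every DMSO sample. The adjusted p of this call was 0.122 without replicate 1 of every CKI and 0.257 without replicate 3 of every CKI. Without DMSO set 2 replicate 3 it was 0.0572. The other CKIs of these classes did not pass, apart from Mubritinib, an inhibitor of ERBB2. Plau had log2 fold changes of 1.17, 1.11, 0.75 and −0.34 with Poziotinib, AC480, Lapatinib and Neratinib, and of 1.12, 0.81 and 0.64 with the p38 inhibitors Talmapimod, Losmapimod and VX702. With the inhibitors of VEGFR and KIT they were 0.88 for Telatinib, 0.59 for TG100572, 0.55 for Vandetanib, −0.12 for OSI930, −0.34 for Apatinib and −0.70 for Vatalanib, and with the JAK inhibitors Ruxolitinib and Filgotinib 0.91 and 0.08.

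Over the screen, the mean of Plau was above the DMSO mean for 45 of the 56 CKIs and above the highest DMSO sample for 37. Of their 168 samples 99 lay above the highest DMSO sample and 18 below the lowest. No share over all genes is given for these counts. The median log2 fold change of Plau over the 56 CKIs was 0.76, while the median over all genes was 0.08 in the middle CKI. As for F3, these comparisons share the 6 DMSO samples. Momelotinib and Pacritinib had Plau values of 123, 96 and 150 and of 241, 201 and 109, given as a description. The genes closest to Plau over the 59 conditions were Pacc1, Arhgap25 and 2310022A10Rik (Spearman 0.882, 0.815 and 0.755).

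Plaur encodes the receptor that holds urokinase on the cell surface. It was raised by 9 of the 56 CKIs and lowered by 1 (16.1% raised against 2.61% and 1.79% lowered against 1.7% of all comparisons). With the replicate block it was raised by 13 and lowered by 1 (23.2% against 4.71% and 1.79% against 3.15%), and with the block and the mitochondrial share by 7 and 1 (12.5% against 1.98% and 1.79% against 2.33%). The block added Bafetinib, Midostaurin, PH797804 and TG100115, of which Midostaurin and PH797804 passed also with the share. In DMSO its values ranged from 740 over a median of 1129 to 1983. With Omipalisib they were 4580, 4990 and 3438, with BGT226 3754, 2804 and 2732 and with PF04691502 3513, 3062 and 2566, all above the highest DMSO sample. The log2 fold changes were 1.88 ± 0.28 (SE, adjusted p = 3.69e-08), 1.40 ± 0.28 (adjusted p = 2.87e-05) and 1.38 ± 0.28 (adjusted p = 0.000231) in limma's test, and these 3 calls held in each of the 24 alternatives.

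The remaining raised calls of Plaur were smaller, with log2 fold changes of 1.02 for Tofacitinib, 0.97 for AZD2014, 0.97 for Lapatinib, 0.93 for Afatinib, 0.85 for Lenvatinib and 0.82 for Apitolisib. Each of these 6 was lost in at least 1 fit without 1 DMSO sample or without 1 replicate number of every CKI. The adjusted p-values were up to 0.171 in the same test. All 5 inhibitors of PI3K and mTOR are thus among the 9, and 7 of the 9 also raised Plau by the same test. With the block and the mitochondrial share the Plaur calls of Apitolisib, Lapatinib, Lenvatinib and Tofacitinib were lost (adjusted p = 0.251, 0.0521, 0.210 and 0.0550 in limma). Over the 56 CKIs the share and the fold change of Plaur had a Spearman correlation of 0.48, whose part in the result was not tested beyond this fit.

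Pimasertib lowered Plaur to 619, 523 and 734, below every DMSO sample and the lowest mean of the 59 conditions (log2 fold change −0.91 ± 0.28 (SE), adjusted p = 0.0173 in limma). This call was lost in 7 of the 24 alternatives, among them each DMSO set alone and the adjustment over all genes and CKIs. The adjusted p in limma was up to 0.158 there. It was 0.125 without replicate 2 of every CKI, and at its lowest 8.86e-06 with the block and the mitochondrial share. The Pimasertib samples are those with the higher neutrophil and macrophage markers described above. The other MEK inhibitors, Refametinib and Selumetinib, had Plaur values of 1269, 1327 and 1279 and of 1646, 740 and 1048, within the DMSO range. Momelotinib and Pacritinib had values of 2046, 1645 and 1809 and of 2234, 2494 and 1065, given as a description. The genes closest to Plaur were Agpat4, Pvr and Zfp719 (Spearman 0.803, 0.800 and 0.769 over the 59 conditions), and among the members Plau was the closest (0.599). Fewer cells with a transcript and less of it per cell cannot be told apart in these bulk samples, for Plaur as for the other members.

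**Figure D2:**
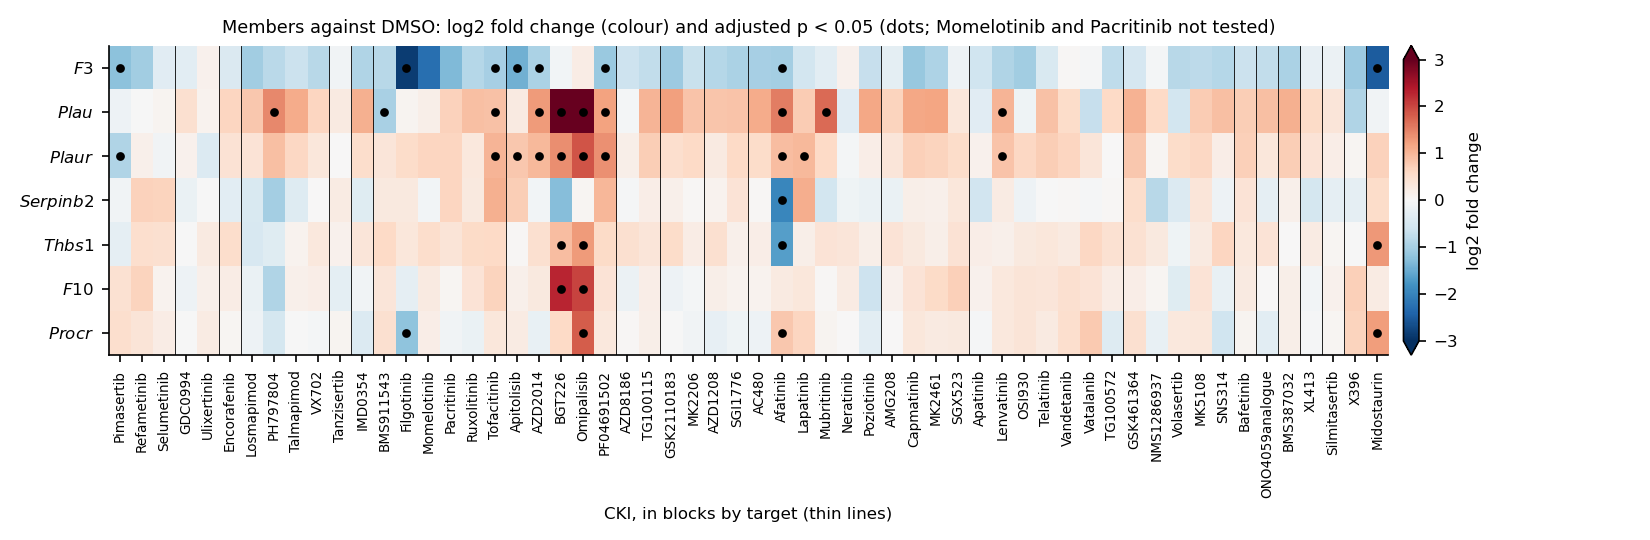
Log2 fold changes against DMSO (colour, from −3 to 3, darker beyond) of the 7 genes (rows) for the 58 CKIs (columns, in blocks by target), with dots where the adjusted p is under 0.05. F3 is blue in nearly every column, Plau and Plaur are red in most, and dots stand together in the columns of Afatinib, BGT226 and Omipalisib.

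Serpinb2 encodes plasminogen activator inhibitor 2, which inhibits urokinase and is known as a strongly LPS-induced transcript of macrophages. It was lowered by 1 of the 56 CKIs and raised by 0 (1.79% lowered against 1.7%). Its DMSO values were 140, 67 and 52 in set 1 and 246, 53 and 73 in set 2, the widest spread of the 7 genes relative to the mean. Afatinib gave 48, 11 and 20, all below the lowest DMSO sample and 3.86-fold below DMSO (log2 fold change −1.95 ± 0.58 (SE), adjusted p = 0.00942). The adjusted p was 0.195 without replicate 2 of every CKI and 0.0702 without replicate 3 of every CKI.

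The spread of Serpinb2 went with the replicate number. The first replicate was the highest of the 3 in 54 of the 56 CKIs and in both DMSO sets, and the medians of the samples numbered 1, 2 and 3 were 160, 66.5 and 74. Mitochondrial transcripts differed along with the number, at medians of 1.93%, 1.34% and 1.09%, and the part of this in the values was not tested. With the replicate number as a block, 3 CKIs raised Serpinb2 and 3 lowered it (5.36% against 4.71% and 5.36% against 3.15% of all comparisons). The added calls were Lapatinib (log2 fold change 1.08), Tofacitinib (1.07) and PF04691502 (1.00) upwards and BGT226 (−1.28) and PH797804 (−1.02) downwards, and same-numbered samples deviated together for Lapatinib and PH797804. Of these, BGT226 and PH797804 passed also with the mitochondrial share in the fit.

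**Figure D3:**
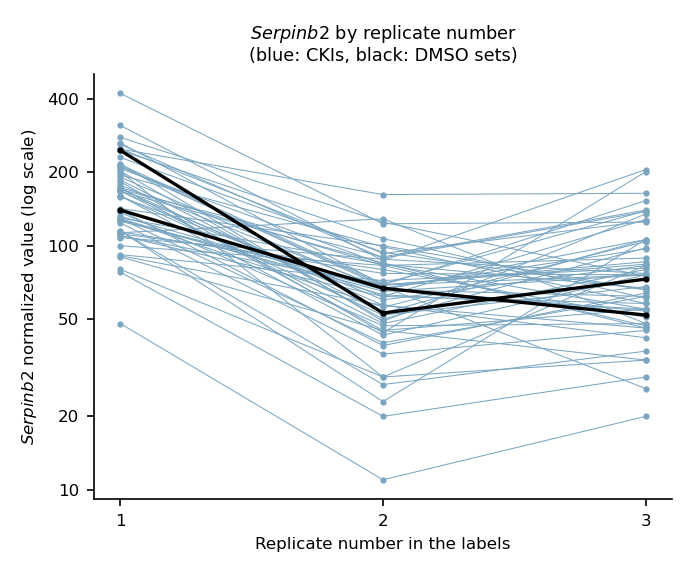
Normalized values of Serpinb2 (log axis) in the samples numbered 1, 2 and 3 of each CKI (blue lines) and of the 2 DMSO sets (black lines). The lines join the samples of a condition, the first replicate is the highest in 54 of the 56 CKIs without Momelotinib and Pacritinib, and the lowest line is Afatinib.

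The Serpinb2 values with BGT226 and PH797804 were 78, 20 and 29 and 80, 29 and 34, the first replicate within the DMSO range and the others below it, and both CKIs raised Plau. With Tofacitinib and PF04691502 they were 421, 123 and 125 and 311, 87 and 205, the first replicate above the DMSO range and the others within it. For these 2 CKIs same-numbered samples did not all deviate together, and the adjusted p with the mitochondrial share was 0.259 and 0.248 in limma. Serpinb2 followed Il1b, Cd14 and Kctd12 most closely over the 59 condition means (Spearman 0.774, 0.702 and 0.696). Its values with Momelotinib and Pacritinib, 160, 52 and 68 and 278, 125 and 75, have the first replicate highest as well.

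Thbs1 encodes thrombospondin 1, a secreted glycoprotein of platelet granules and the extracellular matrix that binds Cd47 and Cd36. It was raised by 3 of the 56 CKIs and lowered by 1 (5.36% against 2.61% and 1.79% against 1.7%). Its DMSO values were 554, 613 and 131 in set 1 and 461, 507 and 421 in set 2, so 1 sample stands far below the other 5. With Midostaurin the values were 1347, 1030 and 726, with Omipalisib 1504, 695 and 925 and with BGT226 980, 706 and 666, all above the highest DMSO sample.

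This was 2.47-fold for Midostaurin (log2 fold change 1.31 ± 0.29 (SE), adjusted p = 0.00108), 2.44-fold for Omipalisib (log2 fold change 1.29 ± 0.29 (SE), adjusted p = 0.000271) and 1.91-fold for BGT226 (log2 fold change 0.93 ± 0.29 (SE), adjusted p = 0.00808). Without replicate 1 of every CKI the adjusted p of Thbs1 was 0.0967 for Midostaurin and 0.134 for BGT226. For BGT226 it was also 0.0944 without DMSO set 1 replicate 3. Afatinib lowered Thbs1 to 110, 72 and 262, the lowest mean of the 59 conditions (log2 fold change −1.66 ± 0.29 (SE), adjusted p = 6.21e-06). Its 3 samples are below 5 of the 6 DMSO samples and overlap the one at 131. The Afatinib call held without any 1 DMSO sample. It also held without any 1 replicate number of the CKIs when all DMSO samples were kept. The call was lost when replicate 2 was left out of the CKIs and DMSO alike, and when only the groups compared were fitted. The adjusted p in limma was up to 0.198 there. With Momelotinib the values were 690, 527 and 536 and with Pacritinib 609, 547 and 439. Sdc1, Tnfrsf1b and Bcl2l11 were closest to Thbs1 over the conditions, at Spearman correlations of 0.661, 0.577 and 0.572.

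Counted by CKI, 41 of the 56 CKIs called none of the 7 genes and 15 called at least 1. At least 4 were called with Afatinib, Omipalisib and BGT226, which are also CKIs with many calls over all genes. Afatinib called 6 of the 7 (21.9% of all genes), raising Plau, Plaur and Procr (9.06% of all genes higher) and lowering F3, Serpinb2 and Thbs1 (12.8% lower). Omipalisib raised 5, Plau, Plaur, Thbs1, F10 and Procr (17.5% higher). BGT226 raised 4, Plau, Plaur, Thbs1 and F10 (24.1% higher), and its Procr values were 158, 115 and 179 (adjusted p = 0.0764 in limma). With Midostaurin F3 was lowered (1.93% of all genes lower) and Thbs1 and Procr were raised (2.63% higher). With AZD2014, PF04691502 and Tofacitinib F3 was lowered, where 13.5%, 4.22% and 0.857% of all genes were lower, while Plau and Plaur were raised, where 6.06%, 8.86% and 9.02% were higher.

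**Figure D4:**
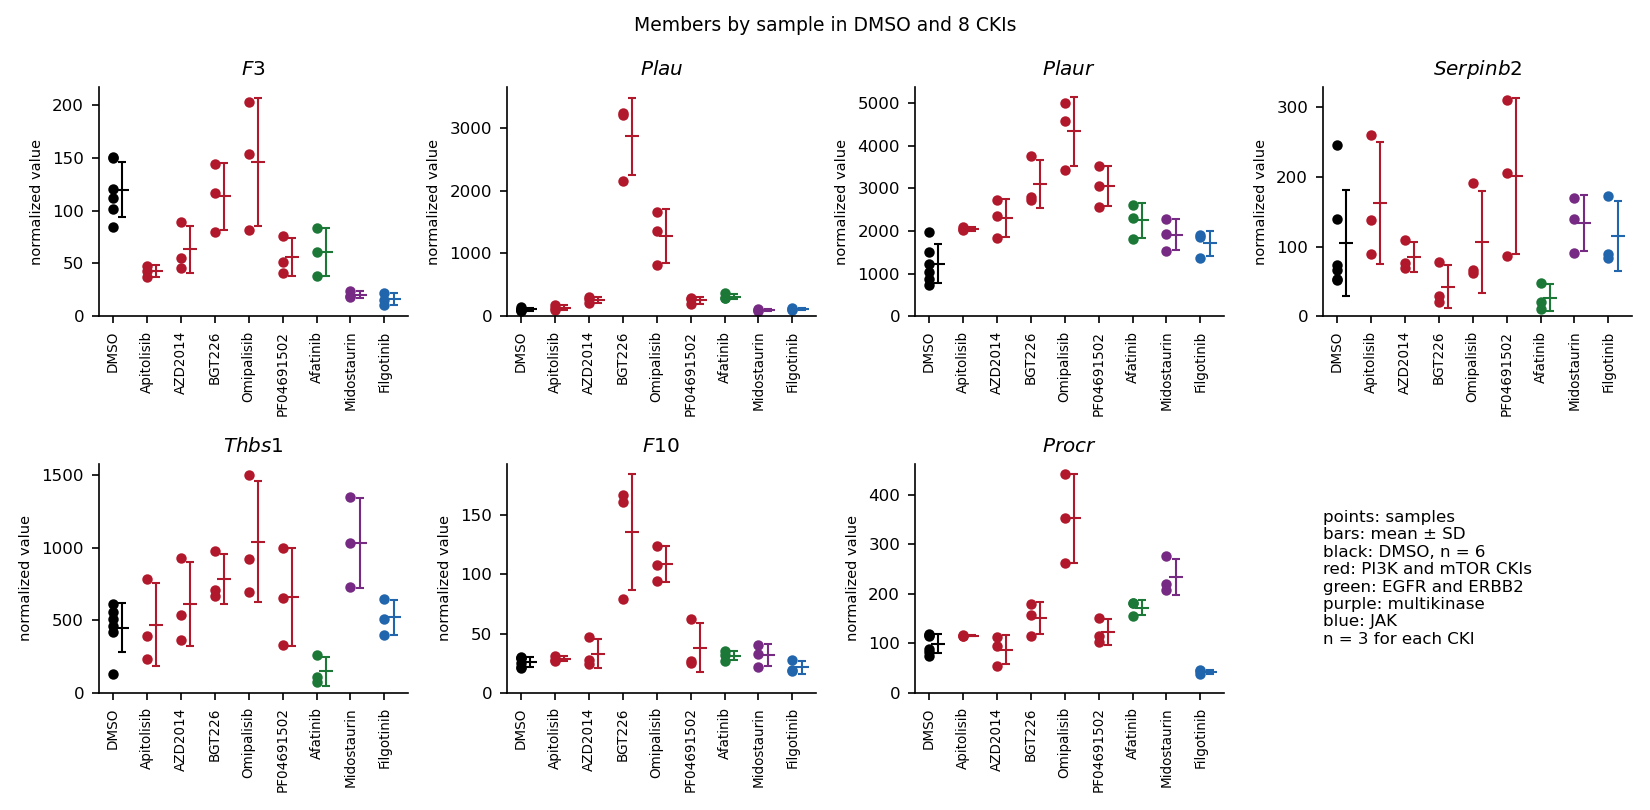
Normalized values of the 7 genes in the samples (points) of DMSO (black), 5 inhibitors of PI3K and mTOR (red), Afatinib (green), Midostaurin (purple) and Filgotinib (blue), with the mean ± SD beside them (n = 6 for DMSO and 3 for each CKI). BGT226 and Omipalisib stand above DMSO for Plau, Plaur, Thbs1 and F10 and overlap it for F3, and Afatinib is lowest for Serpinb2 and Thbs1.

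The other genes of these pathways were taken from lists of coagulation factors, anticoagulants, the plasminogen system, thrombin receptors, and thrombospondins with their receptors. Of the 7 other coagulation genes tested, 6 were called by at least 1 CKI, with 11 calls higher and 3 lower (3.57% of the comparisons, against 4.31% over all genes in either direction). Mcfd2, a cargo receptor for factors V and VIII, was raised by 5 CKIs, most with Omipalisib (1367, 1336 and 1394 against 656 to 888 in DMSO, log2 fold change 0.77). Vwf, the von Willebrand factor, was raised by BGT226 (139, 132 and 187 against 31 to 109 in DMSO) and Omipalisib (111, 142 and 113) and lowered by Afatinib (31, 34 and 62). The endothelial marker Kdr was likewise high in BGT226 (466, 373 and 514) and Omipalisib (439, 354 and 393) against 46 to 356 in DMSO, while Cdh5 was at most 7, Tek at most 1 and Emcn at 0 in both. F13a1, the A chain of factor XIII, was lowered by 2 CKIs, most by Omipalisib (220, 165 and 95 against 215 to 445 in DMSO).

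Among the 4 other anticoagulant genes tested, all were called at least once, with 7 calls higher and 8 lower (6.70% of the comparisons against 4.31%). Pros1, protein S, the cofactor of activated protein C, was lowered by 8 CKIs. Its values were 380, 410 and 386 with BGT226 and 459, 344 and 448 with Omipalisib against 583 to 827 in DMSO (log2 fold changes −0.73 and −0.66), and the 6 others were AZD2014, Lapatinib, Mubritinib, PF04691502, Pimasertib and Tofacitinib. Anxa5, which masks procoagulant membrane, was raised by 4 CKIs, between 0.36 and 0.53 on the log2 scale. Tfpi, the inhibitor of the tissue factor pathway, was raised by Lapatinib (1.22) and Pimasertib (1.12), of which Pimasertib also lowered F3.

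The plasminogen system had 6 other genes tested, of which 5 were called, with 11 calls higher and 1 lower (3.57%). S100a10 and Anxa2, the subunits of a plasminogen receptor, were raised by 5 and 3 CKIs, by at most 0.40 and 0.41 on the log2 scale. Plat, the tissue-type activator, was raised by AZD2014 (1.44) and PF04691502 (1.37), both of which raised Plau and Plaur. Plgrkt, another plasminogen receptor, was raised by BGT226 (0.47), where Plau was highest, and Lrp1, an endocytic receptor that clears urokinase bound to its inhibitors, was lowered by Afatinib (−0.58).

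Of the 4 other genes of thrombospondins and their receptors, 3 were called, with 1 call higher and 8 lower (4.02%). Cd47, a receptor of thrombospondin 1, was lowered by 6 CKIs, most by Filgotinib (2969, 2953 and 3569 against 3938 to 6842 in DMSO, log2 fold change −0.65). The integrin genes Itgav and Itgb3 were lowered by Afatinib (−0.73 and −0.80), where Thbs1 was lowest, and Itgav was raised by Tofacitinib (0.63). None of the 4 thrombin receptor genes passed the filter on low values.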

How the data were processed

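PolyA RNA of 180 BMDM samples was sequenced after SMART-seq2 and Tn5 tagmentation. Per the submitters' processing notes and the methods, the authors aligned the reads to mm10 (TopHat2 2.1.1), removed those in blacklisted regions (bedtools 2.29.2), counted the rest per RefSeq gene in R, scaled the samples on invariant genes and used DESeq2 under R 3.6.2. The deposited values are a score, these normalized counts rounded to whole numbers, and whole reads could not be recovered from them. All columns were matched to samples by name, leaving 0 without a sample. The deposited table also gives coordinates and identifiers.

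Values were tested as log2(normalized value + 1) with limma 3.58.1 (R 4.3.3), with a variance trend, all 59 groups in one fit, each CKI against the 6 DMSO samples, over the 12714 of 45070 genes with a mean of at least 10. P-values were adjusted over genes by Benjamini and Hochberg, and an adjusted p under 0.05 was called. The fit was tested on simulated data. The methods name independent biological replicates, but the labels tie no replicate number to an animal or day, so p-values measure the spread between these samples. Totals of 9477340 to 12273349 per sample set the precision, and no counting intervals can be had from scaled values. No pair of samples was identical: the closest had a Spearman correlation of 0.994 over genes.

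Same-numbered samples of a CKI and DMSO deviated from their group means with a mean correlation of 0.260. The mean for different numbers, −0.130, nearly follows from this through the centring on group means and is no separate comparison. For 34 of the 58 CKIs each of the 3 correlations was over 0.1, and for these the numbers were taken to pair the samples. The fit with the replicate number as a block was an alternative, as were other pseudocounts (0.5 and 10), filters (none and a mean of 50), median of ratios scaling, each DMSO set alone, no variance trend, only the groups compared, the block with the mitochondrial share, adjustment over all CKIs, and leaving out replicates. Leaving out 1 replicate number of every CKI at once, with all DMSO samples kept, was added after seeing the data. So were the nearest genes of F3 without Momelotinib and Pacritinib.

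The members, the gene lists, the motifs and the tests were chosen with earlier results of these data known. For each member the CKIs named are Momelotinib, Pacritinib and the up to 3 highest and 3 lowest log2 fold changes among calls whose samples all lie beyond DMSO, and where a class of inhibitors is compared for a gene all its CKIs are given. Other calls of the members, and F7, Kdr, Cdh5, Tek and Emcn, were named after their values were seen. Genes of similar pattern are the 5 nearest to F3 and the 3 nearest to each other member, and in each list up to 3 genes with the most calls are named, along with others chosen after their values were seen. Some of the genes of these pathways are not reported here. Coordinates are those of mm10, and promoter sequences are from RefSeq (GRCm38.p6). Figures and summaries were made with Python 3.11.15, pandas 2.3.3, NumPy 2.4.6 and matplotlib 3.10.9.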

Additional observations from a re-analysis of the deposited data

Results flagged for a closer look

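Thbs1 in DMSO set 1 replicate 3 stood apart from the other 5 DMSO samples. Its log2(normalized value + 1) was 7.04, from a normalized value of 131, while the others lay between 421 and 613. The gap to the nearest sample was 0.756 of the whole range on the log2 scale, above Dixon's critical value of 0.625 for 6 samples, and 0.602 on the scale of the normalized values, below it. Chance flags about 1 in 20 groups, and the other 6 genes had no such sample in DMSO on either scale. Without this sample the call of Thbs1 with BGT226 was lost (adjusted p = 0.0944 in limma), while the calls with Midostaurin, Omipalisib and Afatinib held. The reason for the low value was not tested.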

How the results depend on the processing

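Of the 39 calls of a member with a CKI, 13 held in every alternative and 0 reversed. They are F3 with Filgotinib and Midostaurin, Plau with BGT226, Omipalisib, Afatinib and AZD2014, Plaur with BGT226, Omipalisib and PF04691502, F10 with BGT226 and Omipalisib, and Procr with Omipalisib and Filgotinib. In all, 765 of the 934 alternative values of these calls kept their side of the threshold and 169 lost it. Of the 39 calls, 21 were lost in some fit that left out a DMSO sample or the same replicate number of every CKI. The fits without a replicate number of every CKI do not single out a library, so this count does not show dependence on single libraries. F10 has no value with the filter at a mean of 50.

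The number of CKIs that called a gene changed by more than 1.5 times as follows. Against DMSO set 1 alone it was 5 for F3 (8 as reported), 5 for Plaur (10) and 0 for Serpinb2 (1), with 7 lowered calls over the members (13). Against DMSO set 2 alone it was 4 for F3 and 6 for Plaur, with 8 lowered calls. With only the groups compared in each fit it was 5 for Plaur, 0 for Serpinb2 and 0 for Thbs1 (4), with 7 lowered calls, from fits with fewer samples. With the replicate number as a block it was 17 for Plau (10) and 6 for Serpinb2, with 42 raised calls over the members (26). With this block and the mitochondrial share it was 5 for F3 and 3 for Serpinb2. Adjustment over all genes and CKIs together gave 19 for Plau, and median of ratios scaling gave 2 for Serpinb2. The causes were not tested. The block ended none of the 39 calls. Of the 5 genes nearest to F3, 4 remained without Momelotinib and Pacritinib.

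Leaving out replicates gave between 3 and 10 CKIs for F3, 6 and 13 for Plau, 3 and 12 for Plaur, 0 and 3 for Serpinb2, 2 and 4 for Thbs1, 2 and 2 for F10, and 2 and 5 for Procr, with between 14 and 32 raised and 5 and 15 lowered calls over the members. With the same adjustments over all genes, 60.4% of the calls were higher as deposited, 40.9% with median of ratios scaling, which moved the median log2 fold change of all genes by −0.20 to 0.04 with a median of −0.07, 69.3% without a filter, 49.6% against DMSO set 2 alone, 46.0% with the block and the mitochondrial share, and 38.1% without replicate 3. Depth limits F10 and F7 most, where differences were not detectable unless they were large.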
